A study of Rattus norvegicus with 3 samples.

Results

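The kinesin family genes described here are the 35 kinesin motor genes with a Kif symbol that were detected in single cells of the postnatal rat cochlea, of 32623 genes in the expression matrices. They were chosen by their symbol (Kif, a number and at most 1 letter from a to c) and by their measured UMI total. A UMI (unique molecular identifier) marks 1 captured mRNA molecule. A gene was kept when it had 20 or more UMIs in cell barcodes with more than 500 genes and under 25% mitochondrial UMIs. Of 37 symbols that matched the pattern, Kif17 lay just inside the limit with 24 UMIs, and Kif12 with 9 UMIs and Kif2b with 1 UMI lay outside it. The totals of the members ran from those 24 UMIs to 34526 UMIs for Kif5b. The 3 stages gave 107653, 62128 and 7450 kinesin UMIs at P1, P7 and P14. These were 959, 647 and 638 CPM, the UMIs of a gene or gene set scaled to a total of 1e6 UMIs.

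The rats were untreated, of the Sprague-Dawley strain, and 1 (P1), 7 (P7) or 14 (P14) days old, and the methods give 40 rats for each stage. Cochlear duct tissue was dissociated and gave 1 droplet library per stage. After filtering, 13162, 12664 and 5282 cell barcodes remained at P1, P7 and P14, with a median of 6679, 6902.5 and 1614.5 UMIs, and 89 of these barcode sequences occurred in more than 1 library. The samples are labelled as greater epithelial ridge cells, but the markers in the data were those of a mixed tissue.

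Cells were clustered without the kinesin genes, and clusters were given a broad class by lists of marker genes. Dividing cells (971 at P1, 1074 at P7), neuron-like cells (662 at P1), glia-like cells (1757 and 3261), mesenchyme-like cells (8469 and 6884), cochlear epithelium-like cells (281 and 230), endothelial-like cells (201 and 195), pericyte-like cells (329 and 290) and macrophage-like cells (181 and 183) had enough cells for levels. At P14 the glia-like class held 357 cells, the mesenchyme-like class 2579, the endothelial-like class 985 and the macrophage-like class 313, but the dividing clusters held 6. The summed list of each class was far higher in the class than elsewhere, from 30765 against 9637 CPM for the mesenchyme and fibrocyte list to 28806 against 71.1 CPM for the macrophage list. Markers of the cochlear epithelium, which includes the greater epithelial ridge, named 281, 230 and 53 cells at the 3 stages, and no class was resolved to the ridge itself.

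With 1 library per stage there is no replicate. Effects of stage, library and depth cannot be told apart, and more cells of a kind within a class cannot be told apart from more RNA per cell. All levels are CPM within the class, and the intervals in square brackets are 95% Poisson intervals that cover counting error only. Because each molecule gives 1 tag at its 3′ end, levels of different genes were not divided by length. A difference was counted as at least 2-fold on the scale of CPM plus 1.

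Kinesins are motor proteins that use ATP to walk along microtubules or to take microtubule ends apart. Some work in the mitotic spindle and at the site of cytokinesis and are made mainly in dividing cells, whereas others carry vesicles, organelles and mRNA along axons and dendrites or build and tune cilia. In the cochlea they serve the axons of spiral ganglion neurons, the kinocilium of developing hair cells and the divisions of growing tissue. The members were accordingly placed in 5 groups: 11 mitotic kinesins, 7 neuronal kinesins, 9 transport kinesins of many tissues, 6 kinesins of cilia and centrioles, and 2 other kinesins.

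**Figure D1:**
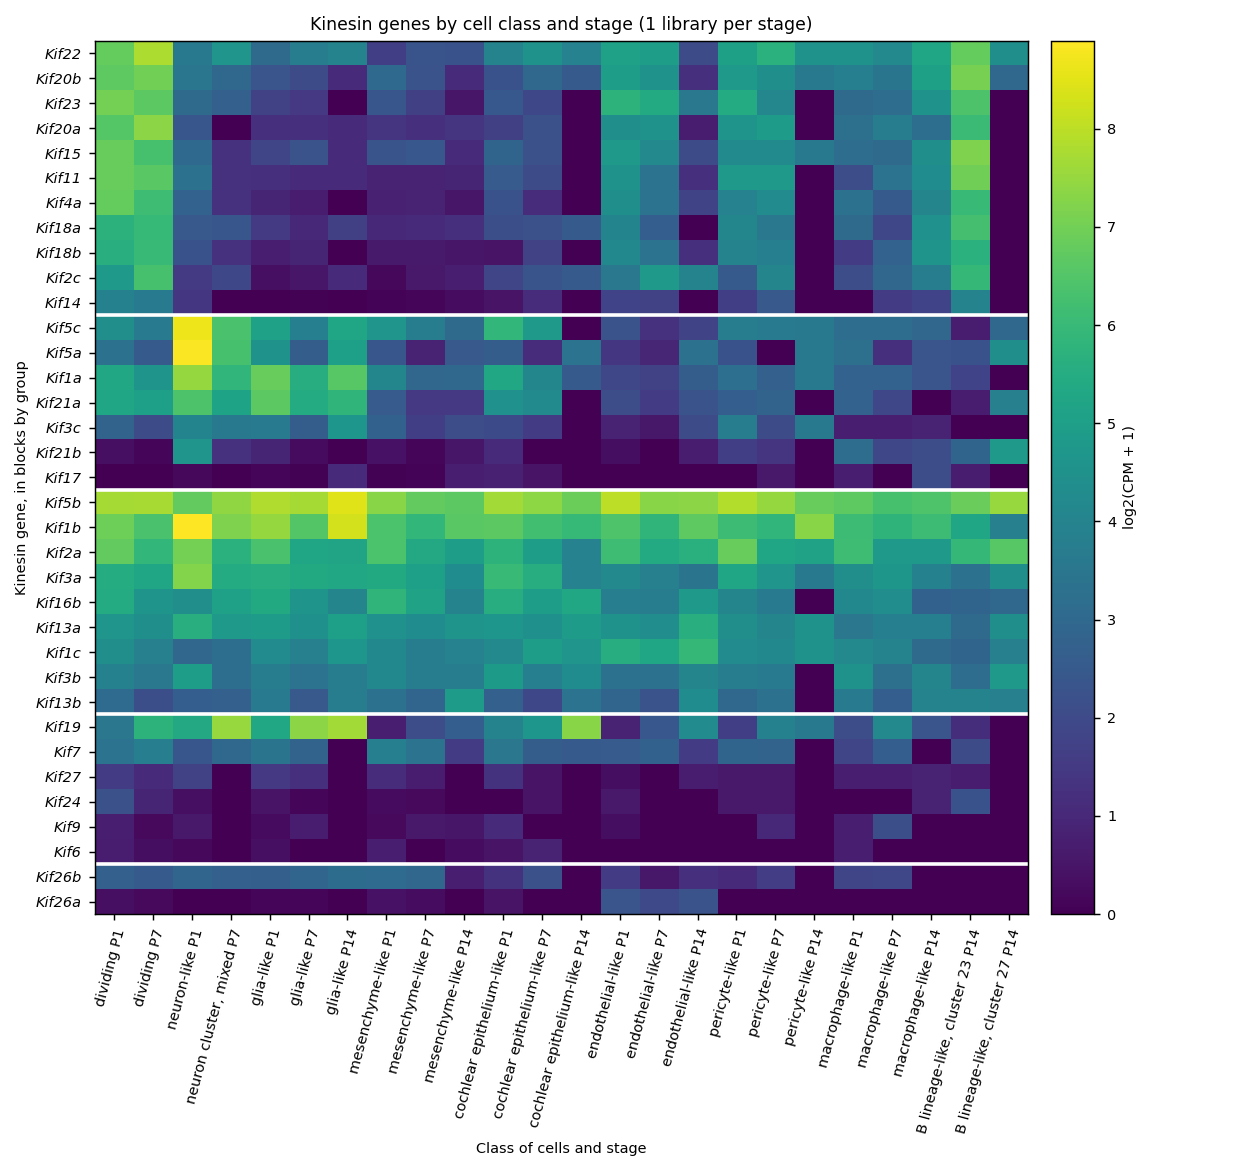
Level of each of the 35 kinesin genes (rows, by group) in each broad class and stage with at least 50 cells (columns), as log2(CPM + 1). The mitotic kinesins stand out in the columns of dividing cells, with up to 225 CPM for Kif22 at P7, and Kif5a, Kif5c and Kif1b stand out in neuron-like cells at P1, with 463, 404 and 475 CPM.

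The mitotic kinesins were the members that set dividing cells apart. At P1, 12 of 35 members were at least 2-fold higher in the dividing clusters than in all other cells, against 3.54% of the 16747 genes with 20 or more UMIs. These 12 were all 11 mitotic kinesins and Kif24, a centriolar kinesin. At P7, 12 of 35 were again higher, against 3.86% of all genes, and these were the 11 mitotic kinesins and Kif21a, which did not differ by 2-fold when dividing cells were chosen barcode by barcode from their cell cycle UMIs. The median log2 ratio of the mitotic group was 3.60 at P1 and 4.30 at P7, beside -0.08 and -0.11 for all genes. The clusters were found from other cell cycle genes of the same cells, so these ratios describe the clusters and are no test.

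Kif11, the motor that slides spindle microtubules apart to separate the poles, was at 112 CPM [105, 119] in dividing cells and 5.70 CPM in other cells at P1. At P7 it was at 97.5 CPM [91.8, 103] against 3.05 CPM. Kif15, which helps to keep the spindle bipolar, was at 113 CPM [107, 120] against 7.71 CPM at P1 and at 77.7 CPM [72.6, 83] against 5.86 CPM at P7. The separation between dividing and other cells was therefore over 10-fold for both motors at both stages.

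Kif4a, a chromokinesin that works with Prc1 in the central spindle, had the largest ratio at P1, 23.6 [21.2, 26.4], with 110 CPM in dividing and 4.65 CPM in other cells. Kif22, the other chromokinesin, was at 110 CPM [104, 117] against 8.47 CPM at P1 and at 225 CPM [216, 233] against 10.4 CPM at P7. Kif20a, a motor of the central spindle and of cytokinesis, was at 91.8 CPM [86, 97.9] against 5.09 CPM at P1. With 163 CPM [155, 170] against 4.17 CPM, Kif20a had the largest ratio at P7, 39.0 [34.8, 43.8]. Kif23, the motor subunit of centralspindlin, was at 129 against 9.44 CPM at P1 and 99.9 against 4.51 CPM at P7. Kif20b, which acts late in cytokinesis, had the smallest ratio of the group at P1, 9.68 [8.87, 10.6].

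Of the remaining mitotic kinesins, the microtubule depolymerase Kif2c was at 27.3 CPM in dividing cells at P1 and 77.4 CPM at P7. The kinesin-8 motors Kif18a and Kif18b, which limit the length of spindle microtubules, were at 51 and 48.5 CPM at P1 and 60.6 and 62.6 CPM at P7. Kif14, which acts in cytokinesis, was the lowest, at 14.1 and 12 CPM. Even so, all 4 lay at or below 3.72 CPM in other cells at both stages. Kif24 reached 3.58 CPM in dividing cells at P1, on 36 UMIs, against 0.372 CPM elsewhere.

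No transport kinesin differed by 2-fold between dividing and other cells at either stage. Kif5b, the kinesin-1 heavy chain of most tissues, was at 208 against 165 CPM at P1 and at 211 against 137 CPM at P7. At P1, 3 neuronal members were lower in dividing cells (6.37% of all genes), with Kif5a at 8.94 against 68 CPM, Kif5c at 20.1 against 77.1 CPM and Kif21b at 0.298 against 3.87 CPM. The other cells of that comparison include the neuron-like cells. At P7 no member was lower by 2-fold (5.6% of all genes). Kif21a, the exception on the higher side at P7, was at 31.5 against 12.6 CPM, and within the dividing clusters it was at 48.1 CPM in the cluster with glial markers and 1.96 CPM in that with mesenchymal markers.

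The genes that work with these motors were counted from fixed lists. All 11 spindle partners were at least 2-fold higher in dividing cells at P1 and at P7 (3.54% and 3.86% of all genes). With the exception of Incenp they belong to the cell cycle list by which the clusters were named, so their count is a description. Examples are Prc1 (229 against 11.7 CPM at P1), Tpx2 (257 against 14.7 CPM) and Birc5 (345 against 20.6 CPM). Of 5 kinesin superfamily motors with other names, Kifc1 (137 against 7.08 CPM), a minus-end motor of the spindle, and Cenpe (185 against 16.7 CPM), a kinetochore motor that is itself in the cell cycle list, were higher at P1. Of 14 light chains, adaptors and accessory subunits, 0 were higher at either stage, while Klc2, Klc3 and Mapk8ip2 were at least 2-fold lower at P1 and Klc3 at P7 (6.37% and 5.6% of all genes). Of 18 dynein and dynactin genes, Nde1 alone was higher, at 54.6 against 12.4 CPM at P1, and Dync1i1 at both stages and Bicd1 at P1 were lower. Kifc2 was lower at both stages, with 2.38 against 10.5 CPM at P1.

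Promoter sequences were looked up because the 11 mitotic kinesins moved together across cell classes. RefSeq promoters of build GRCr8, 250 bases before to 50 bases after the annotated start, were matched by symbol for 28 of the 35 members. Motifs known from cell cycle promoters were searched on both strands, each on its own so that matches of both could overlap: the CCAAT box (CCAAT, or ATTGG on the other strand) and the CHR-type element (TTTGAA or TTCGAA, or TTCAAA on the other strand, with TTCGAA its own reverse complement). The CCAAT box was in 6 and the CHR-type element in 5 of 11 mitotic entries, which cover 10 genes because Kif2c has 2 starts. Of 33469 promoters of the same length, 37.5% held the first, 19.7% the second and 7.95% both. Neither motif was in the 5 matched neuronal promoters, and the CCAAT box was in 3 and the CHR-type element in 0 of 8 transport promoters. Both motifs were also in the promoters of Kif24, 1 of 4 entries for cilia and centrioles, and of Kif26b, so that 6 of 29 member entries (20.7%) held both. Such matches are letters in a window and not binding sites. The 4 mitotic promoters that held both are shown, 5′ to 3′ on the strand of the gene, with matches in capitals. They lie at chr1:241840766-241841065 on the plus strand (Kif20b), chr1:191080829-191081128 on the minus strand (Kif22), chr8:71320535-71320834 on the minus strand (Kif23) and chrX:69761633-69761932 on the plus strand (Kif4a).
Kif20b: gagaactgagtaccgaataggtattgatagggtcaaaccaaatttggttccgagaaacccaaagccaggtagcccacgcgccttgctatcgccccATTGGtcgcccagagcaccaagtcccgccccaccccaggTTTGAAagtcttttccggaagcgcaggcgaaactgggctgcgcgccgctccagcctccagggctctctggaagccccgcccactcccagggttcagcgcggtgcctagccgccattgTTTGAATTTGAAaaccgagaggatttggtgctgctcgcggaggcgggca
Kif22: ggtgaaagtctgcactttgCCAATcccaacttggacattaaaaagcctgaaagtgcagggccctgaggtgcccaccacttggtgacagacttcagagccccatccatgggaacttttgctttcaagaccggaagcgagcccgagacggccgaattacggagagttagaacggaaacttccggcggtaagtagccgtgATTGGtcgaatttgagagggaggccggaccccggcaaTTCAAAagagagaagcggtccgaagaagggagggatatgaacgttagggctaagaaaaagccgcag
Kif23: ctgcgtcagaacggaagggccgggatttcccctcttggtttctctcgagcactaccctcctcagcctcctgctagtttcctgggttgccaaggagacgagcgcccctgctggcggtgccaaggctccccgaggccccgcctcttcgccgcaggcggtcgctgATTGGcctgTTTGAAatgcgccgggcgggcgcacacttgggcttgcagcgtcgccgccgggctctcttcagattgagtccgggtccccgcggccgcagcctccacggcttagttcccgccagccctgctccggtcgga
Kif4a: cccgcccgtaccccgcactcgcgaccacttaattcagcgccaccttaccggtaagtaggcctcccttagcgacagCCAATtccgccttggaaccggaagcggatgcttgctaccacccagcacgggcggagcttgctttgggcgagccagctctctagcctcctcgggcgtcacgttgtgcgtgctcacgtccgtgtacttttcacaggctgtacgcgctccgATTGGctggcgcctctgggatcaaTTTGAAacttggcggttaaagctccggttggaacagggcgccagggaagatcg

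In dividing cells the mitotic kinesins did not shift together between P1 and P7. At least 2-fold higher at P7 were 3 of 35 members (5.61% of all genes): Kif22, Kif2c and Kif19. At least 2-fold lower was 1 member (4.99% of all genes), Kif24, with 36 UMIs at P1 and 10 at P7. With 5 CPM added in place of 1, Kif22 and Kif24 no longer passed. Kif2c was at 27.3 CPM [24.2, 30.7] at P1 and 77.4 CPM [72.4, 82.7] at P7, a ratio of 2.83 [2.47, 3.26]. Kif22 had a ratio of 2.04 [1.90, 2.19] and Kif20a, at 1.77 [1.64, 1.92], stayed under 2-fold, though not with a mitochondrial limit of 10%. In the opposite direction, Kif4a had a ratio of 0.636 [0.58, 0.697], Kif15 of 0.685 [0.627, 0.749] and Kif23 of 0.772 [0.712, 0.837].

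The dividing cells fell into cluster 10, with glial markers (356 cells at P1, 711 at P7), and cluster 13, with mesenchymal markers (615 and 363 cells), so each was read alone. In the glia-marked cluster Kif2c was at 32.5 CPM at P1 and 76 CPM at P7, and in the mesenchyme-marked cluster at 24.5 and 80 CPM. Kif22 was at 95.8 and 232 CPM in the first and at 118 and 211 CPM in the second, and Kif20a at 65.8 and 134 CPM and at 106 and 213 CPM. These depolymerase, chromosome and cytokinesis motors were thus higher at P7 in both clusters. Kif4a was at 90.4 and 64.5 CPM in the glia-marked and at 120 and 79.5 CPM in the mesenchyme-marked cluster. Kif15 was at 101 and 71.3 CPM and at 120 and 89 CPM. Both were lower at P7 in each cluster, with intervals that did not overlap between stages.

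Read alone, the clusters differed by 2-fold between the stages in more members than the 2 together, whose shares of the dividing cells reversed from P1 to P7. In the glia-marked cluster 5 members were higher at P7 (6.43% of all genes), Kif19, Kif20a, Kif22, Kif2c and Kif7, and 6 were lower (5.3%), Kif13b, Kif1a, Kif21a, Kif24, Kif5a and Kif5c. In the mesenchyme-marked cluster 3 were higher (6.67%), Kif19, Kif20a and Kif2c, and 3 were lower (5.12%), Kif1a, Kif3c and Kif5a. Kif1a and Kif5a were lower at P7 in both. Kif1a was at 94.9 and 34.5 CPM in the first and at 9.35 and 3.68 CPM in the second. Kif5a was at 19.2 and 7.15 CPM and at 3.37 and 0.49 CPM, the last on 2 UMIs. The neuronal marker Stmn2 was lower at P7 in the same clusters, at 44.6 and 19.8 CPM in the first and at 23.4 and 4.17 CPM in the second. Over both clusters there were 28.9 UMIs of Kif5a per 100 of Stmn2 at P1 and 33.5 at P7, and the part of neuronal RNA in these levels was not tested.

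Kif11 and Kif23 differed less between stages within a cluster. Kif11 was at 116 CPM [105, 128] and 98.1 CPM [91.1, 106] in the glia-marked cluster, where the intervals overlapped. The level of Kif23 differed more between the clusters than between the stages, with 88.1 and 79.6 CPM in the glia-marked and 152 and 136 CPM in the mesenchyme-marked cluster.

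The cell cycle genes that define the clusters moved with the stage as well. Their summed level in dividing cells was 12431 CPM at P1 and 15321 CPM at P7. Per UMI of that list, on a log2 scale, Kif2c was higher at P7 by 1.2, Kif22 by 0.73 and Kif20a by 0.52, while the value was -0.96 for Kif4a, -0.85 for Kif15, -0.67 for Kif23 and -0.50 for Kif11. In the glia-marked cluster Cdc20 was at 194 CPM at P1 and 601 CPM at P7 and Ube2c at 364 and 1219 CPM, whereas Mki67 was at 496 and 356 CPM and Top2a at 707 and 490 CPM. The part of this shift in the kinesin levels was not tested.

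**Figure D2:**
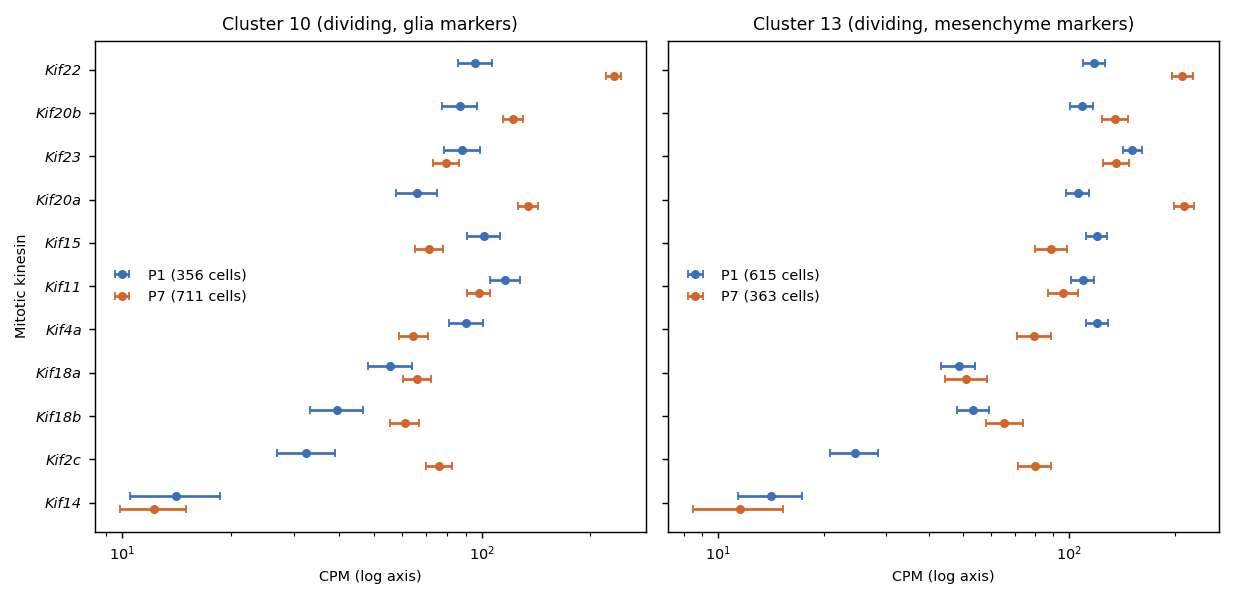
Level (CPM on a log axis, with 95% Poisson intervals) of the 11 mitotic kinesins in dividing clusters 10 and 13 at P1 and P7. Kif2c, Kif22 and Kif20a lie higher at P7 in both clusters, and Kif4a and Kif15 lie lower.

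The members that separated the dividing clusters lay outside the mitotic group. At P1, 5 of 35 were at least 2-fold higher in the glia-marked than in the mesenchyme-marked cluster (6.64% of all genes), Kif19, Kif1a, Kif1b, Kif21a and Kif5a, and Kif26b and Kif7 were lower (10.0% of all genes). At P7, 5 were higher (5.98% of all genes), Kif19, Kif1a, Kif21a, Kif3c and Kif5a. These were 3 and 4 of 7 neuronal kinesins, and 1 and 0 of 9 transport kinesins. No mitotic kinesin was among them. At P1 Kif21a was at 99.7 CPM in the glia-marked and 3.98 CPM in the mesenchyme-marked cluster, close to the 99.9 CPM of glia-like and 4.80 CPM of mesenchyme-like cells. Kif1a, a carrier of synaptic vesicle precursors, was at 94.9 and 9.35 CPM, beside 112 and 15.9 CPM in the classes that do not divide. Kif19, a microtubule depolymerase of cilia, had 106 UMIs in the glia-marked cluster and 0 in the other at P1. The higher Kif19 of dividing cells at P7, 52.9 CPM against 10.5 CPM at P1, lay mainly in the glia-marked cluster, where it was at 29.9 CPM at P1 and 80.7 CPM at P7, beside 14 UMIs or 3.43 CPM in the other at P7.

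Within the dividing clusters, cells were ranged by the share of their cell cycle UMIs that came from 46 G2/M genes as against 42 S phase genes. Neither list holds a member. At P7 the lower range (a share under 33.3%) had 51 cells, the middle range 254 and the upper range (over 66.7%) 756, with 168 cells within 5 points of a limit and 13 cells left out for fewer than 10 such UMIs. In the upper range, 15 of 35 members were at least 2-fold higher than in the lower range, against 12.3% of all genes. These were the 11 mitotic kinesins and Kif3a, Kif13b, Kif27 and Kif3c, the last 3 with 0 UMIs in the lower range. Lower in the upper range by at least 2-fold were 2 members, against 6.94% of all genes: Kif5c, at 30.9 CPM on 12 UMIs in the lower and 10.7 CPM in the upper range, and Kif9, with 1 UMI in each. With only 2 ranges, split at a share of 50%, 13 members were higher, against 3.77% of all genes. Kif3a, Kif13b and Kif3c were no longer among them, and Kif24 was, with 0 UMIs in the lower and 10 in the upper range.

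Kif20a was at 5.14 CPM in the lower, 35.5 CPM in the middle and 212 CPM in the upper range at P7. Kif22 was at 25.7, 83.3 and 281 CPM and Kif11 at 7.71, 41.5 and 120 CPM. Kif15 had a smaller spread, with 23.1, 47.8 and 90.3 CPM, and Kif18b lay at 23.1 and 19.4 CPM in the lower and middle ranges and at 78.9 CPM in the upper. The lower values rest on few molecules, such as 2 UMIs for Kif20a and 9 UMIs for Kif15. At P1 the lower range had 38 cells, too few for levels, and held 0 UMIs of Kif20a, Kif14 and Kif2c, 1 of Kif22, and 13 of Kif15. From the middle to the upper range at P1, Kif20a was at 28.3 and 128 CPM, Kif23 at 49.8 and 175 CPM and Kif2c at 6.77 and 39 CPM. Kif5b, by contrast, was at 167, 193 and 220 CPM over the 3 ranges at P7.

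Mitotic kinesins were also found outside the dividing clusters. A barcode was counted as cycling when it held at least 5 UMIs of the cell cycle list and these made up at least 0.1% of its UMIs. In pericyte-like cells at P1, 67 of 329 met this rule and held 788 CPM [713, 869] of summed mitotic kinesins, beside 10.2 CPM in the others. At P7, 51 of 290 pericyte-like cells held 858 CPM [777, 946], beside 17.7 CPM. The barcodes of the dividing clusters that met the rule held 919 CPM [900, 938] at P1 and 1080.5 CPM [1061, 1100] at P7. These intervals lay above those of the cycling pericyte-like cells.

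Cycling endothelial-like cells at P1 (62 of 201) held 446 CPM against 32.8 CPM, and cycling macrophage-like cells at P14 (103 of 313) held 360 CPM against 15.6 CPM. The median UMIs of cycling and other barcodes were 23963 and 8563 in this endothelial-like class and 6088 and 2021.5 in this macrophage-like class. In neuron-like cells at P1, 116 of 662 met the rule, with 259 CPM against 13.3 CPM. These 116 had a median of 25321 UMIs, beside 20648.5 in the others. In the mesenchyme-like class, by contrast, the 772 of 8469 cells that met the rule at P1 held 36.2 CPM against 21.1 CPM. In glia-like cells the sums were 35.9 against 21.5 CPM at P1 and 55.3 against 24.8 CPM at P7. Cluster 21, which was given no class, held 611 CPM against 28.6 CPM at P1 and 803 CPM against 31.5 CPM at P7. Its cycling barcodes at P1 had a median of 12631 UMIs, beside 4811 in the others. The top 10 genes of this cluster included the mesenchymal markers Ccn3, Meox1 and Postn, the dividing marker Cenpf and the smooth muscle marker Actg2. Its mesenchyme and fibrocyte list was at 22265 CPM at P1, and its cell cycle list at 7570 CPM over all its cells. Cluster 21 was among the other cells in the comparison with dividing clusters. Without it and the B lineage-like clusters, an alternative chosen after seeing the data, 12 members were still higher at P1 and 12 at P7.

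At P14 the dividing clusters were nearly empty, and cycling barcodes were therefore read across all classes. In the 518 barcodes that met the rule, 13 of 35 members were at least 2-fold higher than in other P14 cells, against 10.0% of all genes. These were all 11 mitotic kinesins, Kif24 and Kif21b. Lower by at least 2-fold were 11 members, against 25.8% of all genes: Kif13a, Kif16b, Kif19, Kif1a, Kif1b, Kif1c, Kif21a, Kif26b, Kif3c, Kif5a and Kif5c. Kif11 was at 87.4 against 0.77 CPM, Kif15 at 101 against 1.76 CPM, Kif20b at 101 against 1.43 CPM and Kif22 at 88.2 against 4.18 CPM. Of these barcodes, 322 belonged to cluster 23, a B lineage-like cluster found at P14.

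In that cluster, Kif15 was the highest mitotic kinesin with 144 CPM [126, 164], followed by Kif20b with 134 CPM [116, 153], Kif11 with 125 CPM [108, 144] and Kif22 with 109 CPM [93.3, 126]. The intervals of neighbours in this order overlapped. Kif20a (65.9 CPM), Kif4a (62.2 CPM) and Kif2c (59.1 CPM) lay lower. The other B lineage-like cluster, 129 cells at P14, held 3 UMIs of Kif22, 1 of Kif20b and 0 of the other 9 mitotic kinesins, at a depth where 3 UMIs make 20.4 CPM. Without cluster 23, 12 members were at least 2-fold higher in cycling barcodes, against 8.39% of all genes. Of the 13 with it, 11 were among these, Kif21b and Kif24 were not, and Kif17 was added.

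**Figure D3:**
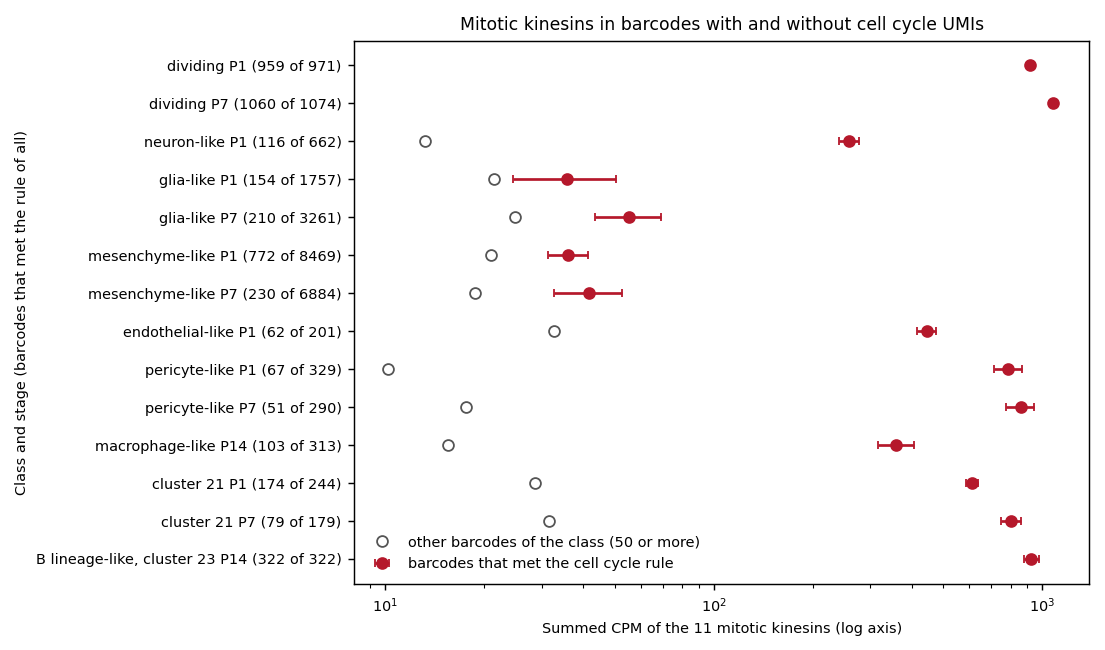
Summed level of the 11 mitotic kinesins (CPM on a log axis) in barcodes that met the cell cycle rule (filled, with 95% Poisson intervals) and in those that did not (open), by class and stage with 50 or more such barcodes. Pericyte-like cells that met the rule reach 788 CPM at P1 and 858 CPM at P7, and mesenchyme-like cells that met it at P1 lie at 36.2 CPM.

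Neuron-like cells at P1 had the highest total of kinesin UMIs, 2265 CPM, beside 1643 CPM in dividing, 1003 CPM in glia-like and 584 CPM in mesenchyme-like cells. Of 35 members, 13 were at least 2-fold higher in neurons than in the other cells outside the dividing clusters, against 12.9% of all genes. They included 6 of 7 neuronal kinesins, 3 of 9 transport kinesins, Kif19 and the mitotic Kif11, Kif14 and Kif4a. Cluster 21, which was given no class, and B lineage-like cluster 23 were also left out of these other cells. The calls of Kif11, Kif14 and Kif4a depend on this exclusion. With 5 CPM added in place of 1 the count was 8, without Kif11, Kif13a, Kif14, Kif3c and Kif4a. The median log2 ratio of the neuronal group was 2.67, beside -0.10 for all genes. Neuron-like cells had a median of 21543 UMIs, over 3 times the median of the library. With each cell thinned to 1000 UMIs, their level of Kif5a was 429 CPM beside 463 CPM before, and that of Kif5c 381 beside 404 CPM. Kif1b was at 464 beside 475 CPM, Kif1a at 160 beside 180 CPM and Kif21b at 30.4 beside 24.2 CPM. Kif19 was at 40 CPM in neuron-like and 38.4 CPM in glia-like cells before thinning, and at 28.9 and 35.9 CPM after it.

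Kif5a, the kinesin-1 heavy chain of neurons, was at 463 CPM [451, 474] in neuron-like cells and 6.40 CPM in the others, a ratio of 72.3 [66.2, 79.1]. Kif21b, a motor of dendrites and axons, followed with 24.2 CPM [21.6, 26.9] against 0.696 CPM, a ratio of 34.7. Kif5c, a further heavy chain rich in neurons, was at 404 CPM [394, 415] against 25.5 CPM, a ratio of 15.9. The 3 kinesin-1 heavy chains thus had different orders by class: in neurons Kif5a lay above Kif5c and both lay above Kif5b (107 CPM), whereas in mesenchyme-like cells Kif5b (158 CPM) lay above Kif5c (24 CPM) and Kif5a (4.15 CPM).

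Kif1a was at 180 CPM [173, 187] in neurons against 27.4 CPM. Kif21a, which limits microtubule growth at the cell cortex, was at 84.6 against 17.1 CPM, and Kif3c, a partner of Kif3a in neurons, at 15.2 against 6.16 CPM. The highest P1 level of Kif21a was not in neurons but in glia-like cells, at 99.9 CPM. Kif17, a motor of dendrites and of some sensory cilia, had 2 UMIs in neurons and was the neuronal member without a 2-fold difference.

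Among the transport kinesins, Kif1b, a carrier of mitochondria and synaptic vesicle precursors, had the highest level of all members in neurons, 475 CPM [464, 487] against 93 CPM. Kif3a, the motor subunit of kinesin-2 that serves cilia and axons, was at 152 against 41.8 CPM. Kif3b, its usual partner, was at 29.6 against 16.2 CPM, short of 2-fold. Lower in neurons by at least 2-fold (13.1% of all genes) were Kif16b, a motor of early endosomes (19.9 against 49.5 CPM), Kif1c, a motor of Golgi and secretory vesicles (6.65 against 18.1 CPM), and Kif7, a regulator of Hedgehog signalling in the cilium (4.27 against 12 CPM). Kif5b was lower as well, with a ratio of 0.617 [0.585, 0.651], short of 2-fold.

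The mitotic members in neurons were at low levels, 9.26 CPM for Kif11, 6 CPM for Kif4a and 1.66 CPM for Kif14. When the neuron-like barcodes that met the cell cycle rule were left out, these 3 no longer differed by 2-fold and 10 members remained.

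Genes that work with kinesins were counted in the same cells, beside 12.9% of all genes. Of 14 light chains, adaptors and accessory subunits, 11 were at least 2-fold higher in neurons, with Klc1, a kinesin-1 light chain, at 530 against 58.9 CPM, Klc2 at 89.4 against 13.6 CPM and the adaptor Mapk8ip2 at 104 against 1.45 CPM. Of 18 dynein and dynactin genes, which drive transport in the opposite direction, 11 were higher, with Bicd1 at 60.5 against 4.21 CPM. Of 5 motors with other names, Kifc2, a minus-end motor of neurites, was higher at 38.3 against 6.30 CPM. Of 11 spindle partners 5 were higher as well, and of the 58 genes of the cell cycle list 17. Of all these lists, Klc3 and Nde1 were lower in neurons.

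**Figure D4:**
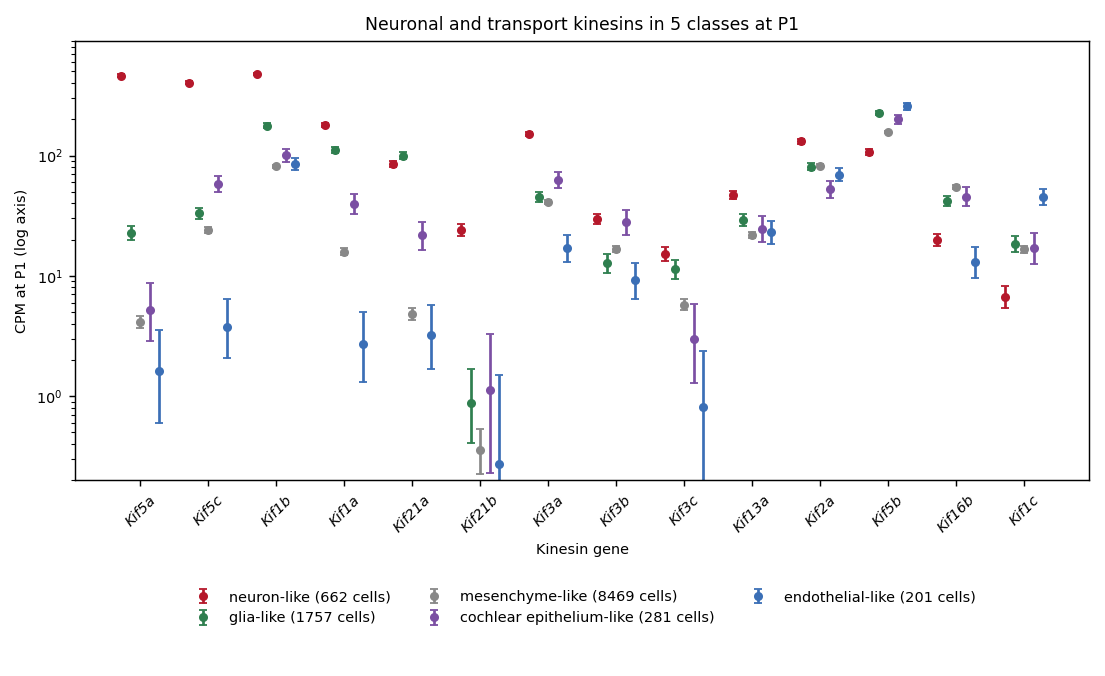
Level of 14 neuronal and transport kinesins in 5 classes at P1 (CPM on a log axis that starts at 0.2 CPM, with 95% Poisson intervals, some of which run below it). Kif5a, Kif5c and Kif21b lie farthest above the other classes in neuron-like cells, and Kif5b lies lowest there.

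The neuron-like cluster could not be followed to P7. It held 100 cells at P7, with a median of 6074.5 UMIs, a neuron list of 7826 CPM against 31849 CPM at P1, and a glia list of 27022 CPM against 6784 CPM. The neuron list exceeded the glia list in 12 of the 100 cells at P7 and in 522 of 662 at P1. In these mixed barcodes Kif5a was at 77.8 CPM [58.8, 101], Kif5c at 79.2 CPM [60, 103] and Kif19 at 185 CPM [155, 219]. The 12 cells with a higher neuron list held 21 UMIs of Kif5a and 22 of Kif5c. At P14 the cluster held 21 cells, with 43 UMIs of Kif5a, 39 of Kif5c and 57 of Kif1b. No stage comparison of neurons is given.

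Small counts of neuronal kinesins in other classes were set beside Stmn2, a neuronal marker. At P1 there were 14.6 UMIs of Kif5a per 100 UMIs of Stmn2 in neuron-like cells, 15.8 in mesenchyme-like cells and 41.2 in glia-like cells. The Stmn2 level of mesenchyme-like cells was 26.3 CPM at P1 and 2.41 CPM at P7, and that of Kif5a 4.15 and 0.81 CPM. Both were lower at P7, while the UMIs of Kif5a per 100 of Stmn2 were 33.6 at P7 and 131 at P14, the last on 21 and 16 UMIs. The part of free neuronal RNA in these levels was not tested.

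Glia-like cells carried Kif19, Kif21a, Kif1a and Kif5a at more than 5 times the level of mesenchyme-like cells at both P1 and P7. From P1 to P7, 1 member was at least 2-fold higher in glia (6.28% of all genes) and 6 were lower (5.46%). The higher one was Kif19, at 38.4 CPM [34.7, 42.4] at P1, 163 CPM [158, 169] at P7 and 200 CPM [172, 231] at P14, the last on 178 UMIs. The ratio of P7 to P1 was 4.25 [3.83, 4.73]. Kif19 was higher at P7 in the 3 glia-like clusters with 50 or more cells at both stages: 55.6 CPM at P1 and 188 CPM at P7 in cluster 0, 26.2 and 109 CPM in cluster 12, and 16.3 and 80.3 CPM in cluster 17. In cluster 17 the doublet caller Scrublet marked 87.6% of cells at P1 and 83.9% at P7, and the mesenchyme and fibrocyte list was at 16678 and 21636 CPM beside 10961 and 21867 CPM of the glia list. At P14, 340 of the 357 glia-like cells belonged to cluster 22, which held 1 cell at P1 and 5 at P7, so P14 values of this class come from a different cluster than those of P1 and P7.

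The 6 lower members in glia were Kif5a, Kif13b, Kif5c, Kif1a, Kif21a and Kif2a. Of these, Kif5a, Kif1a and Kif21a were lower by 2-fold in each of clusters 0, 12 and 17 read alone, Kif13b in clusters 0 and 17, and Kif5c and Kif2a in cluster 0 alone. Cluster 0 held 803 cells at P1 and 2383 at P7 and cluster 12 held 689 and 292, so the make-up of the class differed between the stages. Kif5a was at 22.7 CPM [19.9, 25.8] at P1, 5.2 CPM [4.26, 6.29] at P7 and 31.4 CPM [20.9, 45.4] at P14. Kif1a was at 112, 45.7 and 95.4 CPM over the 3 stages. Both lay lowest at P7. The neuronal marker Stmn2 was at 55.1 CPM at P1 and 12.6 CPM at P7 in these cells, with 41.2 and 41.4 UMIs of Kif5a per 100 of Stmn2, and its part in the Kif5a level was not tested. Kif1b was lowest at P7 too, with 177, 90.2 and 311 CPM, and so was Kif5b, with 227, 208 and 350 CPM. Kif21a was at 99.9 CPM [93.9, 106] at P1, 43 CPM [40.2, 46] at P7 and 55 CPM [40.7, 72.7] at P14, where the intervals of P7 and P14 overlapped. Kif2a, a microtubule depolymerase that prunes axon branches and acts at spindle poles, was at 81.1, 37.4 and 35.9 CPM.

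The glial markers moved in the same libraries. The summed glia list of glia-like cells was at 20127 CPM at P1, 36621 CPM at P7 and 101891 CPM at P14. UMIs of that list also appeared in mesenchyme-like cells, at 2852, 6438 and 22279 CPM, where Kif19 was at 0.684, 3.32 and 5.29 CPM. The Kif19 of mesenchyme-like cells thus moved with the glial markers, and the part of free glial RNA in it was not tested.

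**Figure D5:**
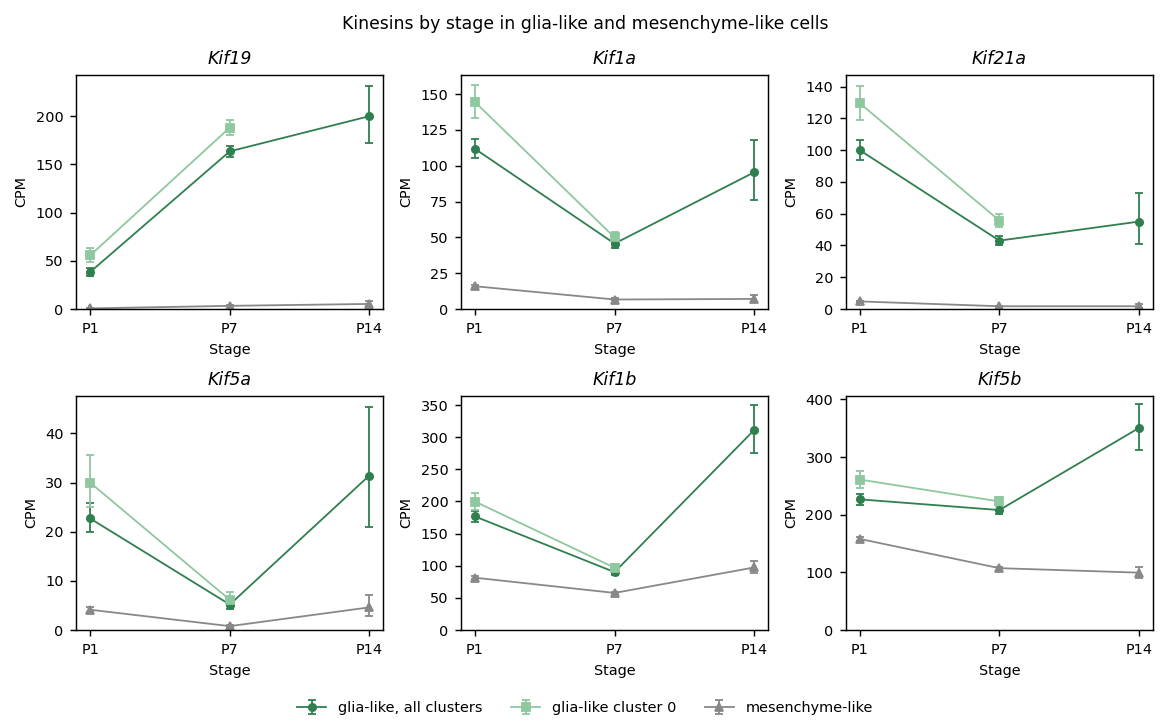
Level (CPM, with 95% Poisson intervals) of 6 kinesins at P1, P7 and P14 in glia-like cells, in glia-like cluster 0 (P1 and P7) and in mesenchyme-like cells. In glia-like cells Kif19 is lowest at P1 with 38.4 CPM, and Kif5a and Kif1a are lowest at P7 with 5.2 and 45.7 CPM.

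The other classes were compared between P1 and P7 in the same way. In mesenchyme-like cells 1 was higher (6.8% of all genes), Kif19, and 5 were lower (3.7%): Kif1a, Kif21a, Kif2a, Kif3c and Kif5a. Most of this class lay in different clusters at the 2 stages, clusters 1, 3 and 6 at P1 and clusters 2, 7 and 9 at P7. At P14, 1708 of the 2579 mesenchyme-like cells lay in cluster 4 and 868 in cluster 15, which together held 4 cells at P1 and 11 at P7, so the P14 levels of this class come from different clusters than those of P1 and P7. In endothelial-like cells 2 were higher (7.62%), Kif2c and Kif19, and 3 were lower (4.68%), Kif11, Kif18a and Kif4a. In pericyte-like cells 3 were higher (8.63%), Kif2c, Kif19 and Kif9, and 4 were lower (7.02%), Kif23, Kif2a, Kif3c and Kif5a. Some of these calls rest on few molecules. Kif19 had 3 UMIs at P1 and 9 at P7 in endothelial-like cells, and 4 and 27 in pericyte-like cells. In pericyte-like cells Kif5a had 7 and 0 UMIs, and Kif9 was at 0 and 1.03 CPM. The share of cells that met the cell cycle rule was 30.8% at P1 and 21.5% at P7 in the endothelial-like class and 20.4% and 17.6% in the pericyte-like class, and its part in these values was not tested. Kif2c was at least 2-fold higher at P7 in 3 classes, at 10.8 and 27.2 CPM in endothelial-like and at 4.78 and 15.4 CPM in pericyte-like cells beside the dividing clusters. Its ratio lay above 1 in all 7 classes with levels at both stages (1.5 to 3.77), with an interval above 1 in 4 of them.

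In cochlear epithelium-like cells 1 member was higher (11.1%), Kif18b on 1 and 6 UMIs, and 7 were lower (7.16%). Of these 7, Kif1a was at 39.6 and 16 CPM, Kif5c at 58.3 and 26.5 CPM and Kif3b at 28 and 13.2 CPM, while Kif5a, Kif4a, Kif21b and Kif9 had 14 UMIs or fewer at P1. Stmn2 was at 23.2 CPM at P1 and 4.81 CPM at P7 in this class and the summed neuron list at 1562 and 1262 CPM, and their part in the neuronal members was not tested. In macrophage-like cells 5 were higher (14.9%), Kif19, Kif11, Kif18b, Kif9 and Kif14, and 5 were lower (7.09%), Kif2a, Kif3b, Kif21b, Kif18a and Kif5a. Most of these rest on few molecules, with 26 UMIs or fewer for each higher member.

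Kif2a was lower at P7 in every class with levels at both stages. Its ratio of P7 to P1 was between 0.329 and 0.61 in these 7 classes, dividing cells included, and the interval lay below 1 in all 7. In mesenchyme-like cells it was at 82.3 CPM [80.1, 84.6] at P1, 40.5 CPM [38.8, 42.2] at P7 and 30.2 CPM [25.4, 35.7] at P14. In pericyte-like cells it was at 113 CPM at P1 and 37 CPM at P7. Kif5a, Kif1b, Kif3b and Kif21b also had ratios below 1 in all 7 classes, with the interval below 1 in 6, 5, 5 and 2 of them. The neuronal marker Stmn2 was lower at P7 in all of these classes too. It was at 11.9 and 1.91 CPM in endothelial-like and at 32.9 and 2.06 CPM in pericyte-like cells. Its part in the Kif5a level was not tested. Kif5a was lower by 2-fold in 5 classes and Kif2a in 4. Kif19 was above 1 in all 7 classes, with ratios from 1.64 to 6.53. The share of all genes with 1 direction in every class was not counted, for these members or for Kif2c. For ratios shared by all classes, an effect of the stage cannot be told apart from one of the library.

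Several members had their highest P1 level outside neurons and dividing cells. Kif1c was highest in endothelial-like cells, with 45.2 CPM [38.6, 52.6] at P1, 36.2 CPM [28.6, 45.4] at P7 and 60.5 CPM [48.9, 74] at P14. With each P1 cell thinned to 1000 UMIs it was highest in pericyte-like cells, with 33.5 CPM beside 25.1 CPM in endothelial-like cells. Kif26a, a kinesin without motor activity, was also highest there, at 4.06 CPM on 15 UMIs at P1, 2.86 CPM on 6 UMIs at P7 and 3.86 CPM on 6 UMIs at P14. It had no level above 0.374 CPM in any other class at P1. Kif5b was highest in endothelial-like cells at P1 as well, with 256 CPM [240, 273].

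In mesenchyme-like cells, 4 members had their highest P1 level: Kif16b, Kif26b, Kif7 and Kif6. Kif16b was at 54.9 CPM [53.1, 56.7] at P1, 33.5 CPM [31.9, 35.1] at P7 and 14.8 CPM [11.4, 18.8] at P14. With P1 cells thinned to 1000 UMIs it was at 51 CPM in mesenchyme-like and 54.3 CPM in cochlear epithelium-like cells. Kif7 was at 13.3, 9.37 and 1.98 CPM and Kif26b, a relative of Kif26a, at 7.57, 6.58 and 0.661 CPM. These 3 lay lowest at P14, the last 2 on 9 and 3 UMIs, where the class came from clusters 4 and 15. Kif13b, a carrier of membrane receptors and phosphoinositide vesicles, was highest at P14 instead, with 9.20 CPM at P1, 6.56 CPM at P7 and 28.9 CPM [24.1, 34.3] at P14. Kif6, a kinesin of cilia, had 43 UMIs in mesenchyme-like cells at P1 and 1 UMI at P7. Its P1 level there, 0.668 CPM, was hardly above the 0.667 CPM of macrophage-like cells.

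Kif13a, which moves vesicles from the Golgi to the cell surface, was highest in neurons at P1 with 47.2 CPM and reached 48.2 CPM [37.9, 60.5] in endothelial-like cells at P14, against 23 CPM there at P1. Kif3a was second highest in cochlear epithelium-like cells at P1, with 62.4 CPM [53.3, 72.6], but with cells thinned to 1000 UMIs it was at 50.7 CPM there, below the 52.8 CPM of dividing cells. The cochlear epithelium-like cells held 46.1 CPM at P7. Kif9, Kif27 and Kif17 stayed at or below 3.35 CPM in every class with levels, and 250 UMIs or fewer stand behind each of them in all cells together.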

How the data were processed

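Single-cell libraries of cochlear tissue at P1, P7 and P14 were analysed, 1 per stage. The authors deposited raw UMI counts per gene and barcode, made with Cell Ranger (3.1.0 in the file header) from reads demultiplexed with bcl2fastq and aligned to rn6, and per the submitters' notes used Seurat 3.1.1. Library totals were 112269286, 96017007 and 11673483 UMIs in barcodes kept (more than 500 genes, under 25% mitochondrial UMIs, no upper limit). Scrublet (scanpy 1.11.5) marked 4.85%, 6.14% and 0.0379% of kept barcodes at P1, P7 and P14. Doublets stayed in, and their removal was an alternative, void at P14. The 3 libraries were merged without integration and clustered with Seurat 5.3.0 (R 4.3.3) on 2000 variable genes, kinesins left out, with 10 components and resolution 0.8, which gave 31 clusters. Classes were named from marker lists.

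UMIs were summed per class and stage with numpy 2.4.6 and pandas 2.3.3 and divided by the class total. Levels were given for sets of at least 50 cells, and otherwise UMI counts. Intervals were exact Poisson for levels and exact conditional binomial for ratios (scipy 1.17.1), and ratios were called at 2-fold after adding 1 CPM. With 1 library per stage no test between stages or classes was made, and the calling of changes was tested on simulated data. Named genes were all 35 members, the fixed partner lists (the 3 largest ratios as examples) and the class markers. Members and lists were chosen with earlier results of these data known. RefSeq annotates a Kif4b pseudogene and genes named Kif19b and Kif27l1, so counts of Kif4a, Kif19 and Kif27 could share reads with these. Alternatives covered the mitochondrial limit, an upper gene limit, resolution, the CPM added, per-cell means, the gene filter, thinning to 1000 UMIs and the per-cell cell cycle rule. Values of 1 marker gene are not reported here.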

Additional observations from a re-analysis of the deposited data

How the results depend on the processing

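No paired analysis was possible because each stage has 1 library. The number of members at least 2-fold higher in dividing cells was 12 at P1 and 11 to 12 under the alternatives (Kif24 was lost with 5 CPM added), and 12 at P7 and 11 to 13, where Kif21a was lost under the per-cell cell cycle rule and Kif24 added with a mitochondrial limit of 10%. In neuron-like cells at P1 it was 13, and 8 with 5 CPM added in place of 1, where Kif11, Kif13a, Kif14, Kif3c and Kif4a no longer passed. With fewer than 5000 genes per barcode, or without barcodes that met the cell cycle rule (an alternative chosen after seeing the data), it was 10. It was 12 at resolution 1.2, where Kif13a was lost. With means over cells it was also 12, where Kif13a and Kif3c were lost and Kif22 was added. The count of members that differed between P1 and P7 in dividing cells was 4. It was 2 with 5 CPM added, where Kif22 and Kif24 no longer passed. It was 6 with a mitochondrial limit of 10%, which added Kif16b and Kif20a, and 6 with means over cells, which added Kif13b and Kif5a. It was 5, with Kif16b added, without Scrublet doublets, at resolutions 0.4 and 1.2 and with kinesins kept among the variable genes. In the glia-marked dividing cluster alone, also chosen after seeing the data, it was 11, and in the mesenchyme-marked cluster 6. With each cell thinned to 1000 UMIs, 22 members had their highest P1 level in dividing or neuron-like cells, beside 24 before. With the limit of the G2/M share at 50%, 13 members were higher in the upper range at P7, beside 15, and 12 of the 13 were among the 15. A contrast of dividing clusters at P14 was not run because they held 6 cells. At P14 the depth limits levels: 3 UMIs make 3.37 CPM in glia-like, 14.3 CPM in cochlear epithelium-like and 33.7 CPM in pericyte-like cells.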

Other observations

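A small hair cell-like cluster of 21 cells at P1, too few for levels, held 460 kinesin UMIs of 328267 UMIs in all. Among them were 86 UMIs of Kif5b, 85 of Kif3a, 66 of Kif5c, 61 of Kif19, 38 of Kif21a, 16 of Kif1a and 15 of Kif1b. Kif3a, the ciliary and axonal motor subunit, was there as frequent as Kif5b, while in mesenchyme-like cells at P1 it was at 41.3 against 158 CPM. In neuron-like cells at P1 Kif3a was at 152 CPM, above Kif5b at 107 CPM. Kif27, with 170 UMIs at P1 in all, had 9 of them in these 21 cells. The 53 cochlear epithelium-like cells at P14 held 33 UMIs of Kif19, or 157 CPM [108, 221], together with 11654 CPM of the summed glia list, and had 0 UMIs of Kif5c.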
